A study of Homo sapiens with 12 samples.

Results

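The genes described here encode the aminoacyl-tRNA synthetases, the enzymes that load each amino acid onto its transfer RNA. The 36 genes were chosen by name, 20 for the cytosolic enzymes and 16 for the mitochondrial enzymes, whose symbols end in 2. They are 36 of the 58735 genes counted, and all 36 were among the 20821 genes that passed the filter on low counts. The symbols are the older ones used in the count table, so that AARS is the gene now named AARS1.

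The libraries were made from K562, an erythroleukemia line driven by the fusion kinase BCR-ABL1, and 4 conditions of 3 replicates each were sequenced. Cells received DMSO (mock DMSO), 0.1 µM nilotinib (mock nilotinib), hemin after DMSO (hemin DMSO) or hemin after nilotinib (hemin nilotinib). Nilotinib is a tyrosine kinase inhibitor of BCR-ABL1, it was given for 24 h before hemin, and hemin was used at 50 µM for 24 h to induce erythroid differentiation. The library names of the mock cells carry the time 0 and those of the hemin cells the time 24, so the effect of hemin and that of time in culture cannot be told apart. By these names the time since nilotinib was given also differs between mock nilotinib and hemin nilotinib.

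Total counts ran from 33457078 to 50506990 per library. The erythroid markers HBG1, HBG2, GATA1, TAL1 and KLF1 were present in every library, with a summed level of 839 to 1234 CPM (counts relative to the effective size of the library) in mock DMSO, 2922 to 4309 in mock nilotinib, 610.2 to 686 in hemin DMSO and 3250 to 3875 in hemin nilotinib. Summed T cell markers (CD3D and CD3E) reached at most 13.4 CPM and B cell markers (CD79A and MS4A1) at most 0.542 CPM. The monocyte markers CD14 and LYZ summed to 25.4 to 43.4 CPM in the DMSO libraries of either kind and to 2.10 to 4.29 CPM in the nilotinib libraries, and the fibroblast markers COL1A1 and COL1A2 to 8.53 to 31.2 CPM over all libraries. Whether a lower level in a bulk library means fewer cells of a kind or less RNA per cell cannot be told apart. Replicate 1 of hemin nilotinib stood apart. Its log2 CPM correlated with that of replicates 2 and 3 at 0.989 and 0.978, against 0.989 to 0.998 for every other pair of replicates. The class counts of genes called that changed without it are given both ways. All shares of all genes come from the fit with every library, so counts without replicate 1 have no background of their own.

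Each synthetase first activates its amino acid with ATP and then transfers it to the matching tRNA. Human cells translate in the cytosol and in mitochondria, and for most amino acids separate nuclear genes encode the enzyme of each compartment. GARS and KARS are exceptions, as each encodes both the cytosolic and the mitochondrial form, and EPRS joins the glutamate and the proline activity in the same protein. Several cytosolic enzymes are held with the scaffold proteins AIMP1, AIMP2 and EEF1E1 in the multisynthetase complex. When uncharged tRNA accumulates, the kinase GCN2 (EIF2AK4) raises translation of the transcription factor ATF4, and many cytosolic synthetase genes are known ATF4 targets through the C/EBP-ATF response element.

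Since that element is known from several of these genes, the promoters were searched for its first letters, TGATGCA, for the related TGATGAA and for the E-box CACGTG, each on both strands. The promoters were those of RefSeq on GRCh38.p14, 250 bases before to 50 after each start, and 30 of the 36 genes matched, 9 of them with more than 1 start. The others were DARS, LARS, VARS, YARS, AARS2 and VARS2. TGATGCA was found for 6 of 16 cytosolic genes (37.5%) and 0 of 14 mitochondrial genes, against 3.24% of 27305 genes. TGATGAA was found for GARS alone among the cytosolic genes (6.25%) and for no mitochondrial gene, against 3.91% of all genes. These are descriptions of letters and not of binding. These motifs were found for 7 of 16 cytosolic genes and for no mitochondrial gene, and no match overlapped with another. IARS held TGATGCA 12 bases before the start and is not shown. For the other 6 genes the 30 bases around the match are shown. They are written in the direction of the gene with the motif, or its reverse complement, in capitals.
AARS, chr16:70289674-70289703, minus strand: tttctcgcagtTGCATCAgccaagttagag
CARS, chr11:3057406-3057435, minus strand: ggggcggcggtTGCATCAgattctaggaag
MARS, chr12:57488054-57488083, plus strand: ccggttccggtTGCATCAgcgagggattca
NARS, chr18:57621804-57621833, minus strand: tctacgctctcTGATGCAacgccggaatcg
TARS, chr5:33440957-33440986, plus strand: cgcctttcgatTGCATCAgctggtccagcc
GARS, chr7:30594835-30594864, plus strand: tacgcggcgatTTCATCAtgctccgagccg
In CARS, MARS, NARS and TARS the match lay from 3 bases before to 14 bases after the start. AARS held it 186 bases before the start, and GARS held TGATGAA 32 bases before 1 of its starts.

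WARS, the gene that fell furthest with nilotinib, held neither amino acid response motif in its 2 RefSeq promoters. The E-box was found for 1 of 16 cytosolic genes (IARS, 6.25%) and for 3 of 14 mitochondrial genes (CARS2, EARS2 and MARS2, 21.4%), against 8.77% of all genes. The 250 bases before the first start of WARS and of MARS2, the mitochondrial gene that fell furthest, are shown to place these findings, with the E-box in capitals.
WARS, chr14:100376328-100376577, minus strand: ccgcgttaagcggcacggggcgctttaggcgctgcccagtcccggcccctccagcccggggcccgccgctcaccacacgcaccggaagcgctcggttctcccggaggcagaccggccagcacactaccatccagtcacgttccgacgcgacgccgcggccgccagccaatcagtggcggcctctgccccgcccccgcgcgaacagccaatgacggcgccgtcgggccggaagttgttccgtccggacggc
MARS2, chr2:197705119-197705368, plus strand: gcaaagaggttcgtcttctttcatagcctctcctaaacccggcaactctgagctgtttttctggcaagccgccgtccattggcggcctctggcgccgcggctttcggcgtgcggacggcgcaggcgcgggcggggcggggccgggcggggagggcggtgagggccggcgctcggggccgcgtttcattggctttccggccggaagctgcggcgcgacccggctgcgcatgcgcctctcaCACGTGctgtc

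In untreated cells the cytosolic genes were the more abundant class. Summed over its members, the cytosolic class reached 8568 ± 660 CPM in mock DMSO (SD, n = 3) and the mitochondrial class 673 ± 31.2 CPM. Per kilobase of gene length, AARS was highest at 262 ± 35.9 CPM per kb, and its libraries lay above those of the next gene, SARS, at 144 ± 8.97. SARS, EPRS (143 ± 14.9) and GARS (143 ± 13.9) overlapped with each other. HARS was the lowest cytosolic gene at 8.53 ± 0.678 CPM per kb, below 7 mitochondrial genes by its mean. Gene length here counts every exon base annotated for a gene, 7853 for HARS, so levels per kb depend on the transcripts annotated. IARS2, the mitochondrial isoleucine enzyme, led its class at 48.0 ± 2.65 CPM per kb and overlapped with LARS and KARS, while SARS2 was last at 0.838 ± 0.263. In all 13 amino acids with a separate gene for each compartment the cytosolic level per kb was the higher, from 1.24 times for histidine to 172 times for serine, with a median of 7.53 times. The counts of SARS2 and VARS2 are uncertain, since 46.2% and 22.0% of their exon bases also belong to other genes of the same strand.

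**Figure D1:**
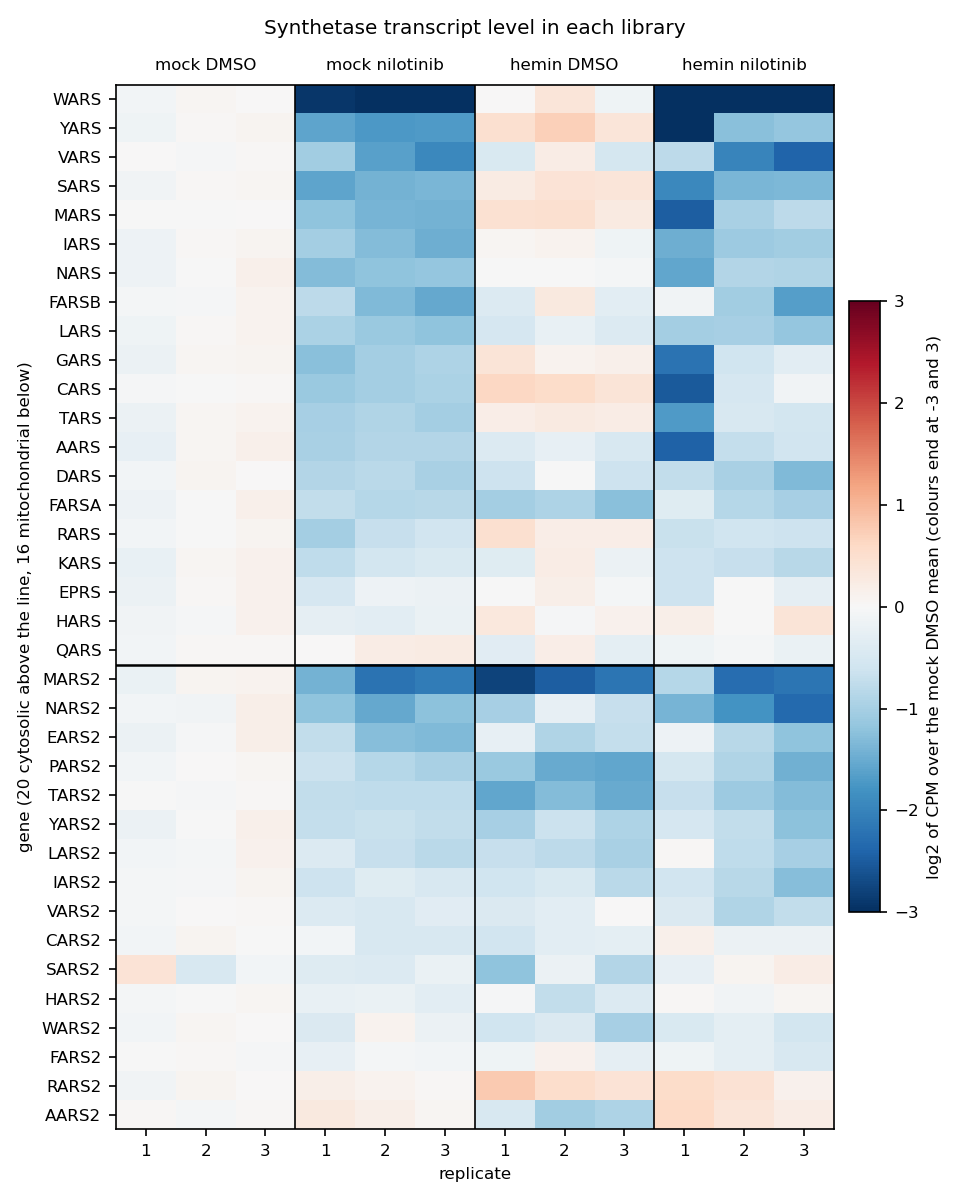
Level of each synthetase gene in each of the 12 libraries, as log2 of its CPM over the mean of the 3 mock DMSO libraries (colour), with genes in rows and libraries in columns. The 20 cytosolic genes above the line are mostly blue in the nilotinib libraries and near white in hemin DMSO, while most of the 16 mitochondrial genes below it are blue in hemin DMSO too.

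Nilotinib without hemin lowered most cytosolic synthetase transcripts. Compared with mock DMSO, 17 of 20 cytosolic genes fell and none rose (edgeR quasi-likelihood test with Benjamini-Hochberg adjustment over all genes, adjusted p under 0.05). Of all genes tested, 21.8% fell and 20.7% rose in this comparison. The median log2 fold change of the cytosolic class was -1.04, against 0.00 over all genes tested. The class sum went from 7826 to 9088 CPM in mock DMSO to 4062 to 4177 CPM in mock nilotinib, so the libraries of the groups did not overlap. Single genes were apart in the lower direction for 18 of 20 cytosolic genes, compared with 31.1% of all genes, and in the higher direction for none, compared with 29.8%. An exact permutation test of 3 against 3 libraries cannot give a two-sided p below 0.1, so single genes rest on the fit across all genes.

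WARS, which charges tryptophan and is also known as an interferon-induced gene, fell furthest. It is a minus strand gene at chr14:100333788-100376805 (GRCh38). Its level was 722, 806 and 777 CPM in mock DMSO and 101, 69.4 and 61.6 CPM in mock nilotinib. Every nilotinib library thus lay far below every DMSO library. The fitted change was a 9.93-fold fall (log2 fold change -3.31 ± 0.33 SE, edgeR adjusted p = 8.75e-07). YARS, the tyrosine enzyme on the minus strand at chr1:32775237-32818153, was next with 582, 646 and 673 CPM in mock DMSO and 211, 191 and 195 CPM in mock nilotinib. This is a 3.19-fold fall (log2 fold change -1.67 ± 0.35, edgeR adjusted p = 0.00103).

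The other cytosolic genes that fell did so by a log2 fold change of -0.58 (KARS, lysine) to -1.49 (VARS, valine). The genes of serine (SARS, -1.45), methionine (MARS, -1.34), isoleucine (IARS, -1.25) and asparagine (NARS, -1.21) were among the larger falls. GARS, the glycine gene of both compartments, stood at 528, 624 and 632 CPM in mock DMSO and at 249.25, 293 and 314 CPM in mock nilotinib (log2 fold change -1.06 ± 0.30, edgeR adjusted p = 0.00994). Both genes that serve the mitochondria as well, GARS and KARS, were therefore in the group that fell. The subunits of the phenylalanine enzyme fell together, FARSA by 0.81 and FARSB by 1.18 on the log2 scale. AARS and CARS fell by 0.90 and 1.02, and both calls were lost without mock DMSO replicate 2, mock DMSO replicate 3 or mock nilotinib replicate 1 (log2 fold changes from -1.09 to -0.85 over all fits without 1 library). The call of CARS was also lost without mock nilotinib replicate 2 and in DESeq2 (adjusted p = 0.0742). MARS and WARS overlap genes on the opposite strand over 12.4% and 10.6% of their exon length. The mitochondrial genes HARS2 and SARS2 do so over 11.7% and 10.8%. Whether the counting used strand is not stated in the sources used here. The genes opposite MARS include DDIT3, which had log2 fold changes of -1.60 with nilotinib alone and 1.19 with hemin alone. Whether reads of DDIT3 entered the MARS count was not tested.

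The cytosolic genes that did not pass were EPRS, HARS and QARS. EPRS held 691, 805 and 847 CPM in mock DMSO and 549, 707 and 687 CPM in mock nilotinib (log2 fold change -0.27 ± 0.17, edgeR adjusted p = 0.202), and these libraries overlapped. QARS, the glutamine enzyme, had 258, 280 and 282 CPM against 277, 317 and 323 CPM (log2 fold change 0.16 ± 0.14, edgeR adjusted p = 0.393). HARS, the histidine enzyme, had 62.3, 65.9 and 72.8 CPM against 55.7, 53.9 and 58.8 CPM (log2 fold change -0.25 ± 0.13, edgeR adjusted p = 0.136). Its libraries did not overlap although the test was not passed.

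In the mitochondrial class 9 of 16 genes fell and none rose, and the class median was -0.44 on the log2 scale. The libraries were apart in the lower direction for 12 of them and in the higher direction for AARS2. The falls that passed were those of MARS2, NARS2, EARS2, PARS2, TARS2, YARS2, LARS2, IARS2 and VARS2. MARS2, the mitochondrial methionine enzyme (chr2:197705369-197708387, plus strand), had 14.2, 17.2 and 17.5 CPM in mock DMSO and 6.14, 3.50 and 3.83 CPM in mock nilotinib, a 3.62-fold fall (log2 fold change -1.86 ± 0.33, edgeR adjusted p = 0.000260). NARS2, for asparagine, fell 2.49-fold (log2 fold change -1.31 ± 0.22, edgeR adjusted p = 0.000187). The 7 genes that did not pass (AARS2, CARS2, FARS2, HARS2, RARS2, SARS2 and WARS2) had log2 fold changes from -0.34 to 0.18. The difference between the classes was not itself tested. Whether the change in marker levels with nilotinib took part in these falls was not tested.

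**Figure D2:**
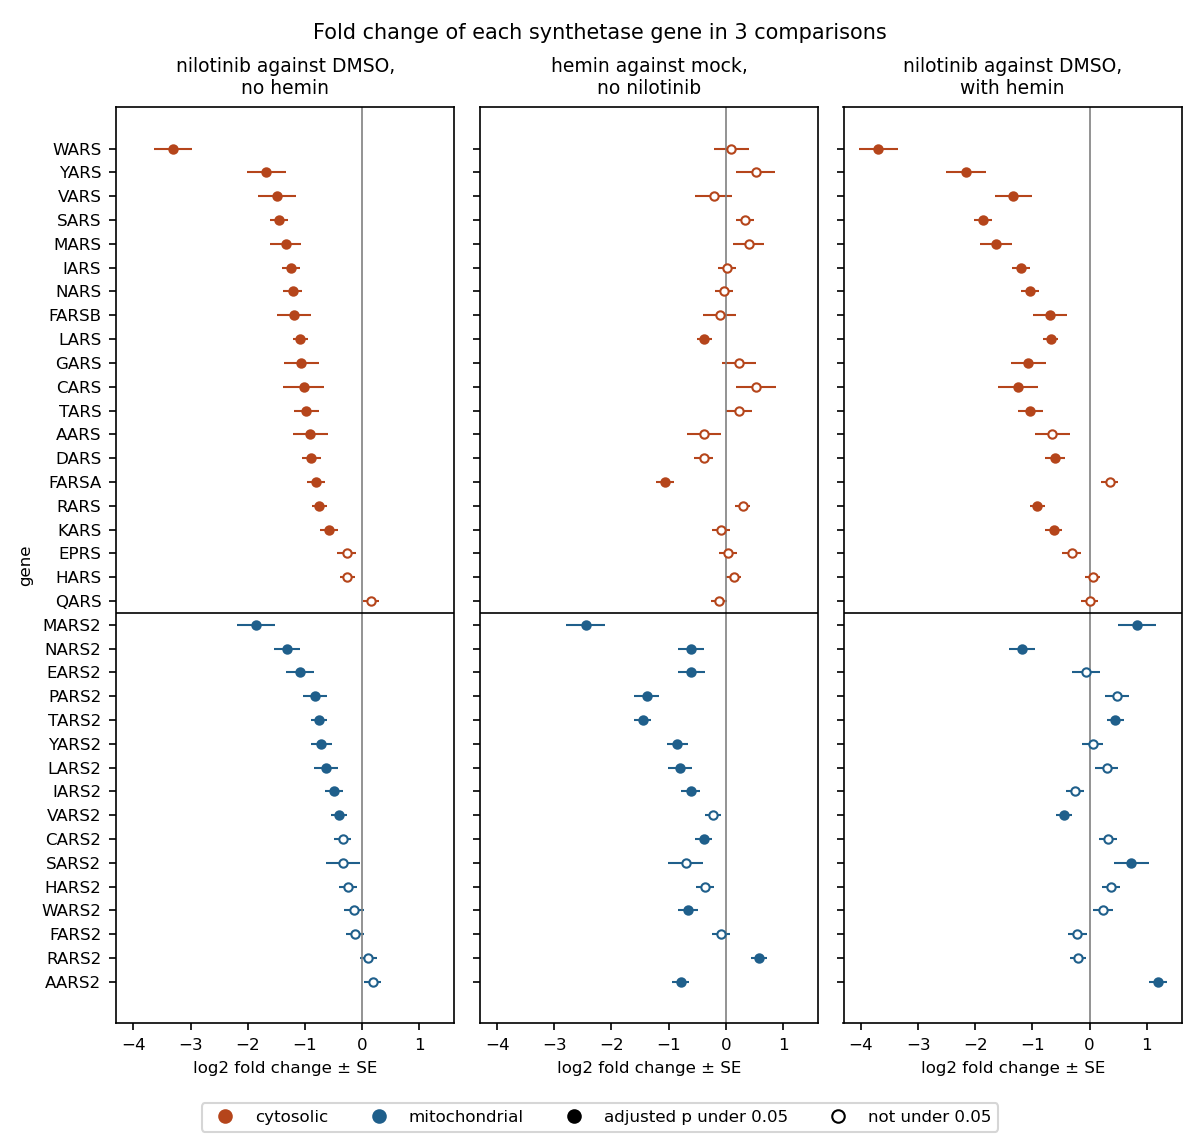
Log2 fold change with its SE (x axis) of each of the 36 genes (y axis) in 3 comparisons, cytosolic genes in brown and mitochondrial genes in blue, filled where the edgeR adjusted p was under 0.05. In the left and right panels the cytosolic genes lie mostly left of 0, and in the middle panel the mitochondrial genes do, with MARS2 at -2.45.

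Hemin without nilotinib lowered mainly mitochondrial synthetase transcripts. Of 16 mitochondrial genes 11 fell, 1 rose and 4 did not pass, with a median log2 fold change of -0.64 against -0.05 over all genes. Of all genes tested, 27.8% fell and 25.7% rose with hemin. Of 20 cytosolic genes 2 fell, none rose and 18 did not pass, with a median of 0.03. The sum over the mitochondrial class was 647 to 708 CPM in mock DMSO and 429 to 464 CPM in hemin DMSO, and these groups did not overlap. The cytosolic sums, at 7826 to 9088 and 8273 to 9837 CPM, did overlap. Mock DMSO is the control group of both comparisons, so they are not independent.

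MARS2 fell furthest again, to 2.39, 2.94 and 3.58 CPM in hemin DMSO, a 5.48-fold fall (log2 fold change -2.45 ± 0.34, edgeR adjusted p = 1.90e-05). TARS2, the mitochondrial threonine enzyme (chr1:150487364-150507609, plus strand), went from 59.8, 59.5 and 62.4 CPM to 20.6, 24.5 and 21.3 CPM (log2 fold change -1.45 ± 0.15, edgeR adjusted p = 1.01e-06). For both genes every hemin library was below every mock library. PARS2, which charges proline in mitochondria, fell by 1.38 on the log2 scale, and YARS2, LARS2 and AARS2 by 0.85, 0.80 and 0.79. AARS2, the mitochondrial alanine enzyme (chr6:44299654-44313326, minus strand), was at 52.2, 49.1 and 52.1 CPM in mock DMSO and at 36.9, 25.0 and 26.8 CPM in hemin DMSO, while nilotinib alone left it at 63.1, 57.8 and 53.4 CPM. WARS2, IARS2, NARS2, EARS2 and CARS2 made up the rest, with log2 fold changes from -0.66 to -0.39. RARS2, the arginine gene, was the only mitochondrial gene to rise, from 25.1, 28.4 and 27.2 CPM to 46.0, 38.8 and 36.0 CPM (log2 fold change 0.58 ± 0.14, edgeR adjusted p = 0.00244). The falls of EARS2 (-0.60, edgeR adjusted p = 0.0461) and CARS2 (-0.39, edgeR adjusted p = 0.0405) were close to the threshold and were not called by DESeq2 (adjusted p = 0.0640 and 0.0620).

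The cytosolic genes that fell with hemin were FARSA and LARS. FARSA, the alpha subunit for phenylalanine (chr19:12922479-12934037, minus strand), went from 150, 163 and 184 CPM to 82.1, 86.6 and 69.6 CPM (log2 fold change -1.06 ± 0.16, edgeR adjusted p = 3.61e-05). Its partner subunit FARSB had a log2 fold change of -0.11 ± 0.29, with overlapping libraries. LARS, for leucine, had a log2 fold change of -0.37 ± 0.13 (edgeR adjusted p = 0.0209). Replicate 1 of hemin nilotinib is in neither group but enters the shared estimate of the spread. Without it 8 cytosolic genes were called, 4 of them higher (CARS, MARS, SARS and YARS) and 4 lower (AARS, DARS, FARSA and LARS). Of the mitochondrial genes 13 then fell and 1 rose, as HARS2 and SARS2 were added to the falls. The share of all genes called in that fit is not given here. In the raw values CARS stood at 211, 214 and 222 CPM in mock DMSO and at 332, 314 and 282 CPM in hemin DMSO, and YARS at 880, 1039 and 813 CPM in hemin DMSO. Of the 20 cytosolic genes, 7 had all hemin libraries above all mock libraries and 3 had all below, against 29.8% and 32.9% of all genes. Of the 16 mitochondrial genes, RARS2 was apart in the higher and 11 in the lower direction.

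The groups treated with 1 agent each were set side by side in a comparison added after the values were seen. Against hemin DMSO, mock nilotinib had 16 of 20 cytosolic genes lower and none higher, with a median log2 difference of -1.13, where 33.4% of all genes were lower and 32.5% higher. Of 16 mitochondrial genes 4 were higher (AARS2, PARS2, TARS2 and WARS2), 2 lower (NARS2 and RARS2) and 10 did not pass, with a median log2 difference of 0.14. SARS differed by -1.78 ± 0.16 (edgeR adjusted p = 5.81e-08), with means of 203 CPM in mock nilotinib and 696 CPM in hemin DMSO. AARS2 differed by 0.98 ± 0.15 (edgeR adjusted p = 3.22e-05), with means of 58.1 and 29.6 CPM. Without replicate 1 of hemin nilotinib 17 cytosolic genes were lower, and 5 mitochondrial genes were higher and 3 lower. The mitochondrial count was 2 higher and 2 lower without hemin DMSO replicate 3, 3 higher and 1 lower without hemin DMSO replicate 2 or mock nilotinib replicate 2, 4 higher and 1 lower without mock nilotinib replicate 3, and 3 higher and 3 lower without mock nilotinib replicate 1. With no composition factors 13 cytosolic genes were lower and 2 higher, and 6 mitochondrial genes were higher and none lower.

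**Figure D3:**
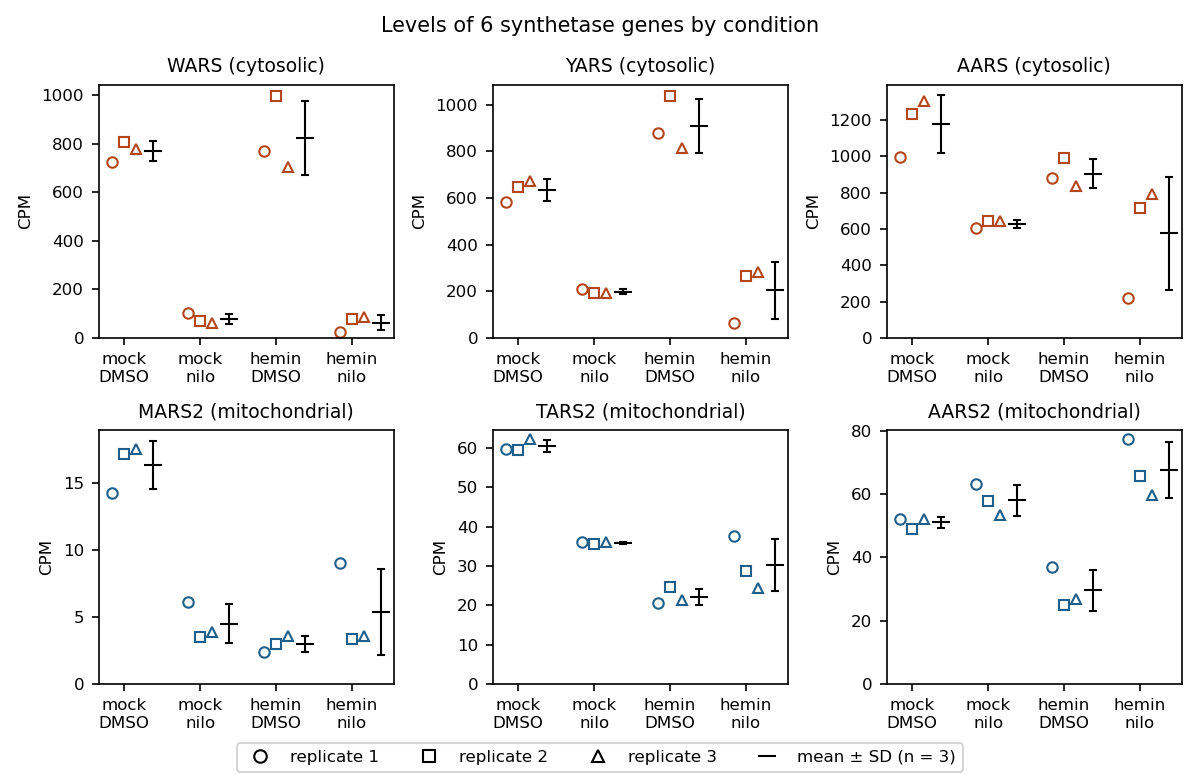
CPM (y axis, from 0) of WARS, YARS, AARS, MARS2, TARS2 and AARS2 in the 4 conditions (x axis), with 1 symbol per replicate and the mean ± SD (n = 3) beside it. WARS and YARS are low in both nilotinib groups, TARS2 has its lowest mean in hemin DMSO, and replicate 1 of hemin nilotinib lies apart for YARS, AARS and MARS2.

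In the presence of hemin, nilotinib again lowered the cytosolic class. Compared with hemin DMSO, 15 of 20 cytosolic genes fell and none rose, with a median log2 fold change of -0.98 against 0.02 over all genes. Of all genes tested, 31.8% fell and 32.4% rose. The libraries were apart in the lower direction for 15 cytosolic genes, compared with 32% of all genes, and in the higher direction for none, compared with 31.5%. WARS held 770, 994 and 702 CPM in hemin DMSO and 25.9, 78.8 and 85.6 CPM in hemin nilotinib, a 13.0-fold fall (log2 fold change -3.70 ± 0.34, edgeR adjusted p = 1.32e-07). YARS was at 63.2, 265 and 282 CPM in hemin nilotinib, a 4.47-fold fall (log2 fold change -2.16 ± 0.35, edgeR adjusted p = 5.91e-05). SARS (-1.86), MARS (-1.64) and VARS (-1.34) came next. The falls of GARS and KARS were 1.07 and 0.63 on the log2 scale, with edgeR adjusted p = 0.00566 and 0.00208.

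The 5 cytosolic genes that did not pass were AARS, EPRS, FARSA, HARS and QARS. QARS was at 218, 313 and 223 CPM in hemin DMSO and 250, 265 and 238 CPM in hemin nilotinib, with a log2 fold change of -0.00 ± 0.14 (edgeR adjusted p = 0.997). HARS had a log2 fold change of 0.05 ± 0.13 and EPRS of -0.31 ± 0.17. Replicate 1 of hemin nilotinib differed from its group in this class: AARS was at 218 CPM there and at 714 and 795 CPM in the other replicates, CARS at 37.7 against 151 and 200 CPM, and GARS at 129 against 390 and 474 CPM. Other genes were higher in that library, such as VARS at 258 against 112 and 83.7 CPM. Without it 15 genes fell still, all of them among the 15 called with it, and the class median was -0.77. The log2 fold change was then -3.31 for WARS and -1.72 for YARS.

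In the mitochondrial class 4 of 16 genes rose, 2 fell and 10 did not pass with nilotinib when hemin was present, and the median log2 fold change was 0.26. Both counts lay below the shares of all genes, of which 32.4% rose and 31.8% fell. Leaving out replicate 1 of hemin nilotinib gave 2 that rose and 3 that fell, with a median of 0.08. The libraries were apart for AARS2 and CARS2 in the higher and for NARS2 and VARS2 in the lower direction, where 31.5% and 32% of all genes were apart. AARS2 rose from 36.9, 25.0 and 26.8 CPM to 77.4, 65.6 and 59.8 CPM, with no overlap between the groups (log2 fold change 1.19 ± 0.15, edgeR adjusted p = 4.71e-06). NARS2 fell from 14.8, 24.7 and 18.1 CPM to 11.1, 8.43 and 5.77 CPM (log2 fold change -1.19 ± 0.23, edgeR adjusted p = 0.000250). Both calls held with every single library left out. MARS2 (0.84 ± 0.33, edgeR adjusted p = 0.0377), SARS2 (0.73), TARS2 (0.45) and VARS2 (-0.45 ± 0.14, edgeR adjusted p = 0.0113) passed too, but each lost its call when some single library was left out: SARS2 in 8 of 12 such fits (and in DESeq2), MARS2 without hemin DMSO replicate 1 or 2 or hemin nilotinib replicate 1, TARS2 without hemin nilotinib replicate 1 (0.28) and VARS2 without hemin DMSO replicate 3 or hemin nilotinib replicate 2. MARS2 rests on replicate 1 of hemin nilotinib, with 9.03 CPM there and 3.35 and 3.60 CPM in the others, and had a log2 fold change of 0.24 (edgeR adjusted p = 0.420) without that library.

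Hemin added to nilotinib changed no synthetase gene past the threshold in the main fit, which takes no account of replicate numbers. Compared with mock nilotinib, 0 of 20 cytosolic and 0 of 16 mitochondrial genes were called in hemin nilotinib by edgeR, where 3.52% of all genes rose and 2.28% fell. At an unadjusted p under 0.05 there were 1 cytosolic and 2 mitochondrial genes, and DESeq2 called 1 cytosolic and 0 mitochondrial genes. The class medians were 0.05 and 0.02, against 0.03 over all genes. Libraries were apart in the higher direction for HARS and HARS2, compared with 11.7% of all genes, and in the lower direction for QARS, compared with 11.6%. HARS came nearest to the threshold, at 55.7, 53.9 and 58.8 CPM in mock nilotinib and 75.3, 66.7 and 87.3 CPM in hemin nilotinib (log2 fold change 0.45 ± 0.13, edgeR adjusted p = 0.0600), and it passed under the replicate block (edgeR adjusted p = 0.0411). These counts depended on 1 library. Without replicate 1 of hemin nilotinib 6 cytosolic genes rose (CARS, GARS, HARS, MARS, TARS and YARS) and 3 mitochondrial genes fell (IARS2, NARS2 and TARS2). The class medians were then 0.14 and -0.26. The shares of all genes above are from the fit with that library, and those without it are not given here. A p that misses the threshold does not show that hemin left the other genes as they were.

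**Figure D4:**
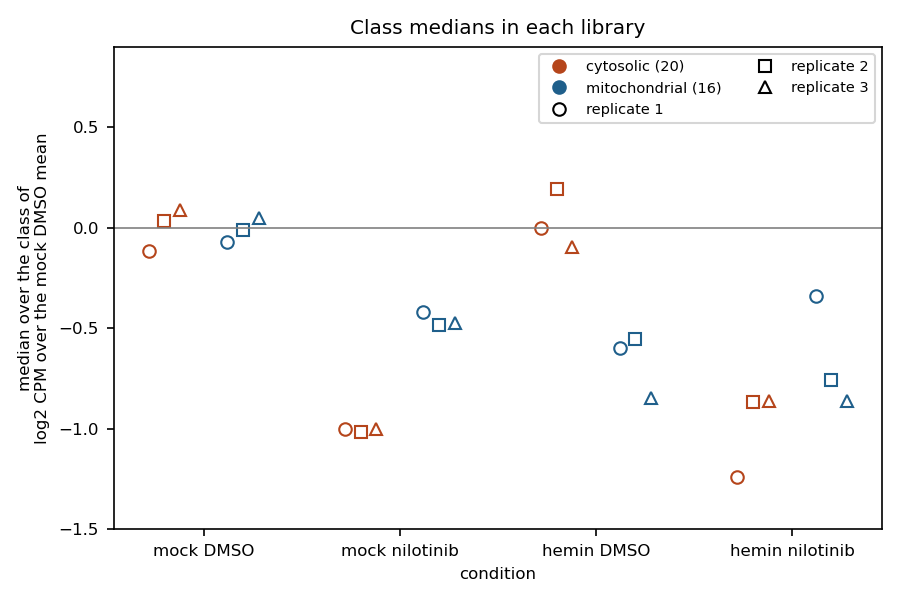
Median over each class of log2 CPM relative to the mock DMSO mean (y axis) in each library by condition (x axis), with brown for the 20 cytosolic and blue for the 16 mitochondrial genes and 1 symbol per replicate. The cytosolic medians of hemin DMSO lie between -0.09 and 0.19 and those of mock nilotinib average -1.01, while the mitochondrial medians are below 0 in all treated libraries.

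The nilotinib effect itself was then compared between cells with and without hemin. The libraries with hemin also carry the later time, so hemin and the time since nilotinib was given cannot be told apart here. The difference of the log2 fold changes was above 0 and past the threshold for 9 of 16 mitochondrial genes and for 1 of 20 cytosolic genes, and no synthetase gene passed in the other direction. Of all genes 17.1% passed above 0 and 13% below it. The class medians of the difference were 0.71 for the mitochondrial and -0.03 for the cytosolic genes, against 0.06 over all genes. MARS2 had the largest difference, 2.69 ± 0.47 (edgeR adjusted p = 0.000586), as nilotinib went with a log2 fold change of -1.86 without hemin and of 0.84 with it. PARS2 followed with 1.29 ± 0.30 (edgeR adjusted p = 0.00468) and TARS2 with 1.21 ± 0.21 (edgeR adjusted p = 0.000556). The cytosolic gene was FARSA, with 1.16 ± 0.22 (edgeR adjusted p = 0.00117).

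The levels behind these differences show their form. TARS2 averaged 60.6 ± 1.58 CPM in mock DMSO (SD, n = 3), 35.9 ± 0.246 in mock nilotinib, 22.1 ± 2.11 in hemin DMSO and 30.3 ± 6.72 in hemin nilotinib. FARSA averaged 166 ± 16.9, 94.7 ± 4.46, 79.5 ± 8.78 and 101 ± 24.5 CPM in the same order, and PARS2 15.4 ± 0.745, 8.76 ± 1.02, 5.92 ± 1.01 and 8.25 ± 2.51 CPM. Each of these genes fell with either agent alone, and its libraries with both agents overlapped with those of nilotinib alone. AARS2 differed by 1.01 ± 0.21 (edgeR adjusted p = 0.00240) and was not lowered by nilotinib alone. The other differences past the threshold were those of EARS2 (1.01 ± 0.34, edgeR adjusted p = 0.0355), LARS2 (0.92), YARS2 (0.77), CARS2 (0.66) and HARS2 (0.62 ± 0.22, edgeR adjusted p = 0.0469). FARSA, AARS2, MARS2, PARS2 and TARS2 kept the call with any 1 library left out, and CARS2, EARS2, HARS2, LARS2 and YARS2 did not. HARS2 was not called by DESeq2 either (adjusted p = 0.0548). Without replicate 1 of hemin nilotinib 8 mitochondrial genes passed, 7 of them among the 9, and the difference for MARS2 was 2.09. In the cytosolic class 2 genes then passed, as AARS was added to FARSA.

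**Figure D5:**
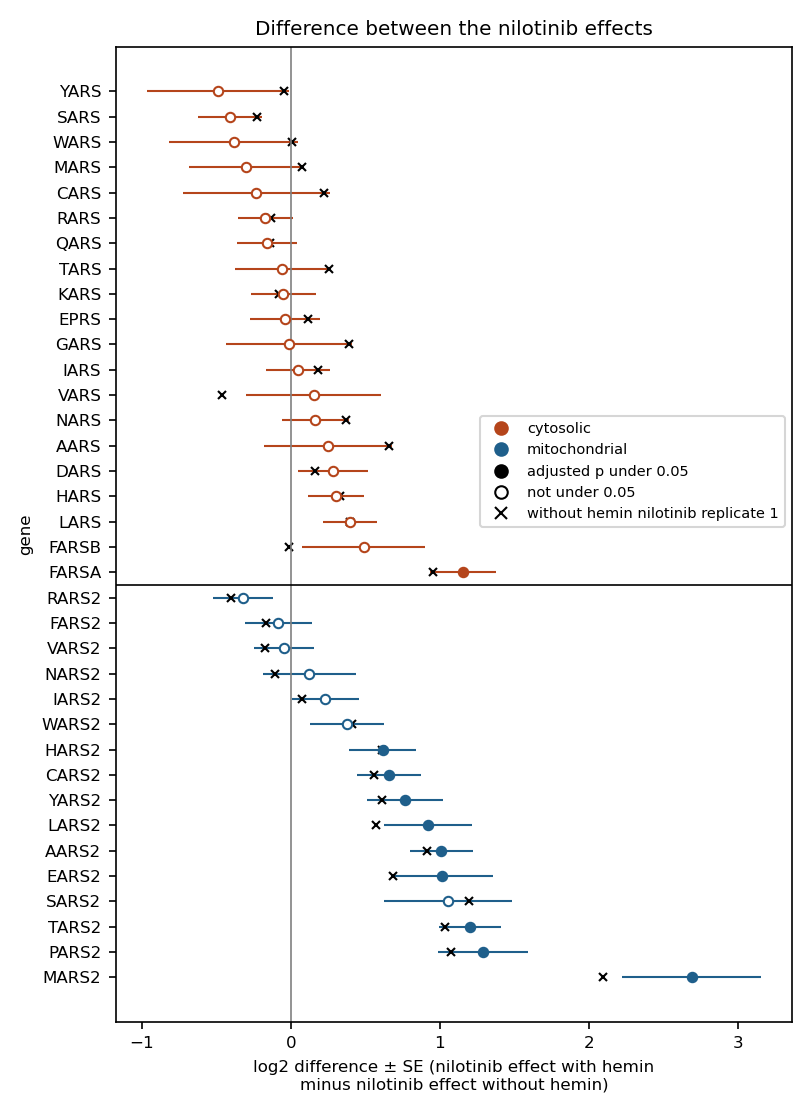
Difference of the nilotinib effect with hemin and that without hemin on the log2 scale with its SE (x axis) for each gene (y axis), filled where the edgeR adjusted p was under 0.05, with crosses for the fit without replicate 1 of hemin nilotinib. The filled points are FARSA and 9 mitochondrial genes, all right of 0, and the cross of MARS2 lies at 2.09.

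For the 13 amino acids with a gene for each compartment, the enzymes of the pair can be set side by side. With nilotinib alone the cytosolic gene had the more negative log2 fold change in 11 of 13 pairs, and the median of the cytosolic minus the mitochondrial value was -0.76. For 5 amino acids only the cytosolic gene was called lower, for 7 both were, and for none only the mitochondrial gene. With hemin alone the cytosolic gene had the more positive value in 12 of 13 pairs, with a median of 0.63, and for 8 amino acids only the mitochondrial gene was called lower. Tryptophan gave the widest gap with nilotinib, at -3.31 for WARS and -0.14 for WARS2. Methionine gave the widest gap with hemin, at 0.40 for MARS and -2.45 for MARS2. In asparagine both genes fell with nilotinib, NARS by 1.21 and NARS2 by 1.31 without hemin and by 1.05 and 1.19 with it. The pairs were not tested as such, and the comparisons share control libraries.

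HARS and HARS2, which lie head to head on chromosome 5 and overlap by 437 bases, passed in few comparisons. HARS2 was at 24.6, 25.3 and 26.9 CPM in mock DMSO, 21.9, 22.2 and 20.5 in mock nilotinib, 24.9, 15.4 and 19.3 in hemin DMSO and 26.4, 23.8 and 26.7 in hemin nilotinib. With every library in the main fit, HARS2 passed in the difference of the nilotinib effects only. HARS passed only in the added comparison of the single agents (-0.39 ± 0.13, edgeR adjusted p = 0.0158). EPRS, QARS and FARS2, the mitochondrial phenylalanine enzyme, passed in no comparison. For FARS2 the group means ran from 11.6 to 14.2 CPM. EARS2, which charges glutamate in mitochondria, fell with nilotinib alone from 25.2, 27.8 and 32.1 CPM to 17.1, 11.7 and 11.4 CPM, whereas EPRS did not pass.

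Other genes of tRNA charging were called in both directions. With nilotinib alone 21.8% of all genes fell and 20.7% rose, and with hemin alone 27.8% fell and 25.7% rose. With nilotinib in the presence of hemin 31.8% fell and 32.4% rose. Whether the counts in the short lists below differ from these shares was not tested. With nilotinib alone all 3 scaffold genes of the multisynthetase complex fell, AIMP2 by 1.42, EEF1E1 by 1.02 and AIMP1 by 0.44 on the log2 scale, and XPOT, the tRNA exporter, by 1.06. With hemin alone AIMP2 fell by 1.63 while AIMP1 and EEF1E1 did not pass. XPOT fell too with hemin alone, by 0.51, and with nilotinib in the presence of hemin, by 0.52. Of the 4 genes for the mitochondrial amidotransferase and formyltransferase, 1 fell with nilotinib alone (QRSL1) and 3 with hemin alone (QRSL1, GATC and MTFMT), and 1 rose with nilotinib in the presence of hemin (GATC). Without replicate 1 of hemin nilotinib GATC lost that call and GATB fell, and MTFMT also fell with nilotinib alone. Among 6 editing and related genes, DTD1 and DTD2, which remove D-amino acids from tRNA, fell with nilotinib alone and SEPSECS, of selenocysteine synthesis, rose. With hemin alone AARSD1, DTD2 and SEPSECS fell and TARSL2 rose, and with nilotinib in the presence of hemin AARSD1, DTD2 and SEPSECS rose and DTD1 fell. DTD2 did not pass in that last comparison when replicate 1 of hemin nilotinib was left out (0.47, edgeR adjusted p = 0.105).

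The translation factors gave a point of comparison. Of the 4 cytosolic elongation factor genes tested, none passed with nilotinib alone (log2 fold changes from -0.18 to 0.17, edgeR adjusted p from 0.231 for EEF1D to 0.953 for EEF1A1), 1 rose with hemin alone (EEF1B2), and with nilotinib in the presence of hemin 2 fell (EEF1B2 and EEF2) and 1 rose (EEF1D). Of all genes, 21.8% fell and 20.7% rose with nilotinib alone, and 25.7% rose with hemin alone. With nilotinib in the presence of hemin 31.8% fell and 32.4% rose. EEF1G was listed with no counts. Of 9 mitochondrial translation factor genes 5 fell with nilotinib alone, among them TUFM by 1.03 and MTIF2 by 0.98. This compares with 21.8% of all genes. With hemin alone 4 fell and 2 rose, with TSFM at -1.12 and GFM2 at 1.33, where 27.8% of all genes fell and 25.7% rose. With nilotinib in the presence of hemin 4 fell and 2 rose (MTIF3 and TSFM), where 31.8% of all genes fell and 32.4% rose, and TSFM did not pass without replicate 1 of hemin nilotinib (0.31, edgeR adjusted p = 0.105). TSFM had a difference of the nilotinib effects above 0 (1.11) and GFM2 one below 0 (-0.88). GFM1 also passed above 0 (0.87), but not without replicate 1 of hemin nilotinib (0.61, edgeR adjusted p = 0.0619).

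The amino acid response genes were lower with nilotinib in either setting. Of 14 genes 10 fell with nilotinib alone and none rose, with a list median of -1.62 on the log2 scale, and 12 fell and none rose with nilotinib in the presence of hemin, with a median of -1.96. Of all genes, 21.8% fell in the first of these comparisons and 31.8% in the second. When replicate 1 of hemin nilotinib was left out, 13 fell in the first comparison (ATF4, ASNS and SESN2 were added), and in the second 12 fell and ASNS rose. TRIB3, an ATF4 target, was at 294, 395 and 397 CPM in mock DMSO and at 39.9, 33.9 and 31.7 CPM in mock nilotinib (log2 fold change -3.36 ± 0.24, edgeR adjusted p = 1.71e-08). PSAT1, of serine synthesis, was at 284, 318 and 314 CPM and at 33.05, 23.7 and 23.8 CPM. ATF4 itself, which is controlled mainly at translation, had a log2 fold change of -0.57 ± 0.27 (edgeR adjusted p = 0.105) with nilotinib alone and of -1.08 ± 0.28 (edgeR adjusted p = 0.00288) in the presence of hemin. With hemin alone 4 of the 14 rose (ATF3, DDIT3, CHAC1 and SESN2), near the 25.7% of all genes, and 1 fell (GCN1), where 27.8% of all genes did. Of the others, TRIB3, PSAT1 and PHGDH had log2 fold changes of 0.06, 0.07 and 0.02.

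With hemin added to nilotinib only CHAC1 among the 14 rose, at 4.13, 1.78 and 2.16 CPM in mock nilotinib and 0.719, 24.5 and 31.3 CPM in hemin nilotinib. With that first replicate left out 8 of the 14 rose and none fell, with a median log2 fold change of 0.75. Replicate 1 of hemin nilotinib was the lowest of its group for ATF4 (138 against 369 and 407 CPM), ASNS (2.62 against 30.2 and 68.7 CPM) and PSAT1 (10.8 against 72.1 and 75.5 CPM), as it was for AARS, CARS, GARS and YARS. What set that library apart was not tested.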

How the data were processed

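RNA-seq of K562 cells was used, with 12 libraries in 4 conditions of 3 replicates. The authors deposited raw counts per gene, made from 150-base paired-end reads, and FPKM values, which divide the counts by gene length and a factor per library. The submitters' processing notes name GRCh38.p12, DESeq and DESeq2; the aligner, counter and strand setting are not given in the sources used here. A table of FPKM means was not used.

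Low genes were removed with filterByExpr at a minimum count of 10 and a total of 15. Raw counts were scaled by TMM and fitted in edgeR 4.0.16 (R 4.3.3), 1 mean per condition over all libraries, and quasi-likelihood tests were adjusted by Benjamini-Hochberg over 20821 genes (threshold 0.05). SE is the log2 fold change over the root of F. CPM values use TMM library sizes, and precision is limited by 3 libraries per group. Alternatives were DESeq2 1.42.0, limma 3.58.1 on log2(FPKM + 1) and log2(FPKM + 0.1), other scalings and filters, the 6 libraries of a comparison alone, a 1.5-fold minimum, a replicate block and leaving out each library. The code was tested on simulated data.

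Members and lists were chosen with earlier results of these data known. Full statistics were given for the 2 largest rises and falls past the threshold per class and comparison, the 3 largest differences of effect per class, GARS, KARS, EPRS, HARS, HARS2, QARS, EARS2 and genes passing in no comparison; other values were chosen after they were seen. Replicate numbers, which the labels give without a shared culture or day, did not enter the main fit. Deviations of same-numbered libraries correlated above 0.1 in every pair for nilotinib without hemin (0.139 to 0.164) and hemin with nilotinib (0.386 to 0.408). The p-values of the main fit leave this likeness out, and only the replicate block takes it in. The study's methods call the 3 replicates biological, without saying how they were made. Nothing in the labels says that replicates came from separate cultures, so p-values measure the spread between these libraries. Gene positions matched GENCODE 29 for all 36 genes. Promoters came from RefSeq. Some marker and promoter results are not reported here.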

Additional observations from a re-analysis of the deposited data

Results flagged for a closer look

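The results listed here are those in which the test of the difference found unequal effects of nilotinib with and without hemin (edgeR quasi-likelihood interaction, log2 difference, adjusted p under 0.05). They were MARS2 (2.69), PARS2 (1.29), TARS2 (1.21), FARSA (1.16), AARS2 (1.01), EARS2 (1.01), LARS2 (0.923), YARS2 (0.766), CARS2 (0.662) and HARS2 (0.616), all with the more positive effect in the presence of hemin. Hemin and the time since nilotinib was given cannot be told apart in this test. With 3 libraries per condition no search for single outlying libraries was made.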

How the results depend on the processing

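The cytosolic falls with nilotinib, with or without hemin, stayed within 1.5 times the reported count in every alternative run, and no single result past the threshold changed sign. Of 54 such results followed, 28 kept side and direction throughout, 6 lost and 9 gained a call somewhere, and 13 that were not past the threshold changed sign. Depth allowed all 36 genes to be tested, with SARS2 the sparsest at 1.93 to 3.62 CPM in mock DMSO. The cause of the changes listed here was not tested.

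Leaving out the composition factors moved the median of all genes to -0.29 for hemin without nilotinib, 0.20 for nilotinib with hemin and 0.27 for the difference of the nilotinib effects, upper-quartile factors moved it to 0.11 for nilotinib without hemin, and keeping all genes with a count moved it to -0.12 for hemin without nilotinib. With upper-quartile factors the medians for nilotinib without hemin were -0.929 (cytosolic) and -0.334 (mitochondrial), and 5 mitochondrial genes passed in the difference. With no composition factors the medians were -0.214 and -0.886 for hemin without nilotinib and 0.192 and 0.915 for the difference, with 5 and 2 cytosolic calls. Calls for hemin without nilotinib in the cytosolic class were 4 with RLE factors, 6 with all genes of at least 1 count, 4 with 10 counts in every library, 7 with the 6 libraries alone and 1 with the 1.5-fold minimum. For nilotinib with hemin, 2 mitochondrial genes were called with the 6 libraries alone. Hemin with nilotinib had 1 cytosolic call by DESeq2 and 1 with 10 counts in every library. In limma the difference had 4 mitochondrial calls at either pseudocount, with a median of 0.476 at log2(FPKM + 1).

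With the replicate block 4 cytosolic genes were called for hemin without nilotinib (1 higher, 3 lower, gaining DARS and SARS) and 1 for hemin with nilotinib. For nilotinib with hemin the block called 17 cytosolic genes, gaining AARS and EPRS, gained HARS2 and PARS2, and lost MARS2 (0.74, edgeR adjusted p = 0.0545) and SARS2 (0.73, edgeR adjusted p = 0.0531); HARS2 was gained for hemin without nilotinib. It changed no other call in either class in these comparisons, in nilotinib without hemin or in the difference. In the added comparison of the single agents the block gave 17 cytosolic genes lower and none higher. Of the mitochondrial genes 4 were then higher and 3 lower. For hemin without nilotinib same-numbered libraries correlated at 0.0888 to 0.143, with 6 of 6 libraries highest with their own number. For nilotinib with hemin they correlated at -0.0737 to 0.272, with 3 of 6.

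With 1 library left out, cytosolic calls and medians ran from 15 to 17 and -1.14 to -0.977 for nilotinib without hemin, 1 to 8 and -0.115 to 0.0990 for hemin without nilotinib, 14 to 16 and -1.04 to -0.768 for nilotinib with hemin, 0 to 6 and -0.0480 to 0.141 for hemin with nilotinib, and 1 to 2 and -0.0835 to 0.139 for the difference. Mitochondrial calls and medians ran in the same order from 6 to 9 and -0.518 to -0.435, 9 to 14 and -0.743 to -0.541, 4 to 8 and 0.0802 to 0.325, 0 to 3 and -0.262 to 0.163, and 4 to 9 and 0.589 to 0.875. Calls lost in some such fits were, beside those named above, IARS2, LARS2 and VARS2 for nilotinib without hemin, LARS, CARS2, EARS2 and NARS2 for hemin without nilotinib, and FARSB for nilotinib with hemin.

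The sign changes were these. For hemin without nilotinib, GARS was at -0.00887, EPRS at -0.204 and HARS at -0.0948 with no composition factors, KARS at 0.0372 with upper-quartile factors and EPRS at -0.0350 with all genes of at least 1 count. With 1 library left out KARS ran from -0.264 to 0.0468 and EPRS from -0.113 to 0.0987. For nilotinib with hemin, QARS was at 0.187 with no composition factors, 0.0388 with all genes, 0.0212 with the 6 libraries alone and 0.0124 with the block, and EARS2 at 0.101 with no composition factors. Left-out libraries gave -0.0964 to 0.191 for QARS, -0.392 to 0.161 for EARS2 and -0.0413 to 0.151 for HARS. For hemin with nilotinib, EPRS was at 0.00185 with upper-quartile factors, 0.0247 with 10 counts in every library and 0.00798 with the 6 libraries alone, and ran from -0.185 to 0.138 with left-out libraries, as GARS did from -0.147 to 0.598. In the difference, no composition factors gave GARS 0.210, KARS 0.162, EPRS 0.175 and QARS 0.0567, and all genes of at least 1 count gave GARS 0.0552, KARS 0.0183 and EPRS 0.0285. Left-out libraries gave -0.324 to 0.389, -0.184 to 0.127, -0.170 to 0.118 and -0.265 to 0.0216 for those genes in turn.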
